A study of Homo sapiens with 12 samples.

Results

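A set of 8 genes that set how a cell answers a death ligand were followed across 4 treatment groups of MDA-MB-468, a human breast cancer cell line of the triple-negative kind. They are the receptors TNFRSF10A, TNFRSF10B and FAS, the initiator caspase CASP8, its inhibitory relative CFLAR, and the inhibitor of apoptosis genes XIAP, BIRC2 and BIRC3. The genes were chosen by name, as the core of the death receptor route to apoptosis, and all 8 were found among the 59324 genes of the expression table. All 8 also reached the mean of 1 TPM over the libraries that a gene needed to be tested, as did 13937 genes in all. TPM is a share of all transcripts in a library after correction for transcript length.

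The 12 libraries came from 4 groups of 3. The treatment label of the combination reads SAHA and sonidegib, with no dose, time or order. It was taken to have the doses and times of the single-drug labels. SAHA cells had SAHA at 10 µM for 12 h, and sonidegib cells are labelled with sonidegib at 10 µM as a pretreatment for 72 h. Control cells are labelled as controls with no vehicle or culture time given. SAHA (vorinostat) inhibits histone deacetylases, and sonidegib inhibits Smoothened, the membrane protein that passes on the Hedgehog signal. All libraries come from a single cell line, and nothing in the labels says that the 3 libraries of a group were separate cultures, so every p-value rests on differences between libraries that may be technical.

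Death receptors are surface proteins of the tumour necrosis factor receptor family. When TRAIL binds TNFRSF10A (DR4) or TNFRSF10B (DR5), or Fas ligand binds FAS, the adaptor FADD and procaspase-8 gather at the receptor tail and caspase-8 is activated. CFLAR encodes c-FLIP, a protein that resembles caspase-8, joins it at the receptor and limits its activation. Further down, XIAP binds and blocks the executioner caspases, while cIAP1 and cIAP2, the products of BIRC2 and BIRC3, are ubiquitin ligases that act on RIPK1 in TNF receptor complexes. Histone deacetylase inhibitors have been studied in cancer cells as agents that alter the balance of these proteins.

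Each library had between 20125 and 21402 genes above 0, and the depth behind the values is unknown because TPM keep no counts. Libraries of a group correlated at 0.967 to 0.98 over the tested genes on the log2(TPM + 1) scale, and libraries of different groups at 0.906 to 0.956. Epithelial markers chosen for the line, namely EPCAM, CDH1, KRT8, KRT18, KRT19 and EGFR, were all present and summed to 4751 to 4897 TPM in the combination, 9492 to 9922 TPM in SAHA, 4806 to 5169 TPM in sonidegib and 8196 to 9069 TPM in control. Most of the sum was KRT8, KRT18 and KRT19, and it does not stand for each marker. By group mean, CDH1 had 33.5 TPM in the combination, 46.9 in SAHA, 23.9 in sonidegib and 20.8 in control. In the same order EGFR had 577, 569, 658 and 623 TPM, and EPCAM had 192, 251, 188 and 336 TPM. PGR was listed at 0 throughout, ESR1 stayed at or under 1.76 TPM and ERBB2 lay between 3.05 and 26.33 TPM. Of the markers of other cells, PTPRC reached at most 0.01 TPM, although CD14 lay between 207 and 336 TPM. The 4 fibroblast markers summed to 9.58 to 10.1 TPM in the combination, 10.3 to 13.1 TPM in SAHA, 4.57 to 7.08 TPM in sonidegib and 3.22 to 4.49 TPM in control, nearly all of it COL1A1, while COL1A2 stayed at or under 0.35 TPM and DCN at or under 0.10 TPM. The 3 endothelial markers together stayed at or under 1.06 TPM. In bulk RNA, fewer cells of a kind and less RNA per cell cannot be told apart. The 6 libraries with sonidegib held 1488 to 12641 TPM of 5S ribosomal RNA and the 6 without it held 0. In every comparison across that line, which means sonidegib against control, combination against control, combination against SAHA and the interaction, the drug and this difference between libraries cannot be told apart. SAHA against control and combination against sonidegib lie each on 1 side of it. Mitochondrial ribosomal RNA made up 2.41 to 2.86% of TPM in the combination, 1.18 to 1.35% in SAHA, 2.06 to 2.48% in sonidegib and 0.565 to 0.67% in control. It was higher in SAHA than in control, where CFLAR and XIAP were lower. Those calls held when ribosomal and mitochondrial genes were left out. That step only rescales the libraries and moved the median SAHA change of all tested genes by 0.049. It could therefore hardly alter those calls, and the part of this difference in them was not tested. The library numbered 3 was the highest of its group in 27 of the 32 combinations of gene and group among the 8 genes. Over all tested genes it was the highest for 60.0% of genes in the combination, 45.0% in SAHA, 44.2% in sonidegib and 52.8% in control. Fits with replicate number as a block and with each library left out are given below. Beyond these, the part of library 3 in the spreads was not tested.

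BIRC2 was the most abundant of the 8 genes in every group and FAS the least abundant, and in each group neither overlapped its neighbour in the order. By the mean over all libraries, BIRC2 stood at percentile 71.6 of the tested genes, TNFRSF10B at 57.3, CASP8 at 56.9 and CFLAR at 50.4. BIRC3 stood at percentile 41.1, TNFRSF10A at 38.6, XIAP at 37.6 and FAS at 6.55. The middle of the order differed between groups. In the combination it ran TNFRSF10B, CASP8, BIRC3, CFLAR, XIAP and TNFRSF10A, and in SAHA it ran CASP8, TNFRSF10B, BIRC3, TNFRSF10A, CFLAR and XIAP. In sonidegib it ran TNFRSF10B, CFLAR, CASP8, XIAP, TNFRSF10A and BIRC3, and in control CASP8, CFLAR, TNFRSF10B, XIAP, TNFRSF10A and BIRC3. All neighbours in the middle of the control order overlapped. In the combination CFLAR stood above XIAP without overlap. In SAHA the order separated CASP8 from TNFRSF10B, TNFRSF10B from BIRC3, and CFLAR from XIAP. In sonidegib it separated CASP8 from XIAP and XIAP from TNFRSF10A.

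**Figure D1:**
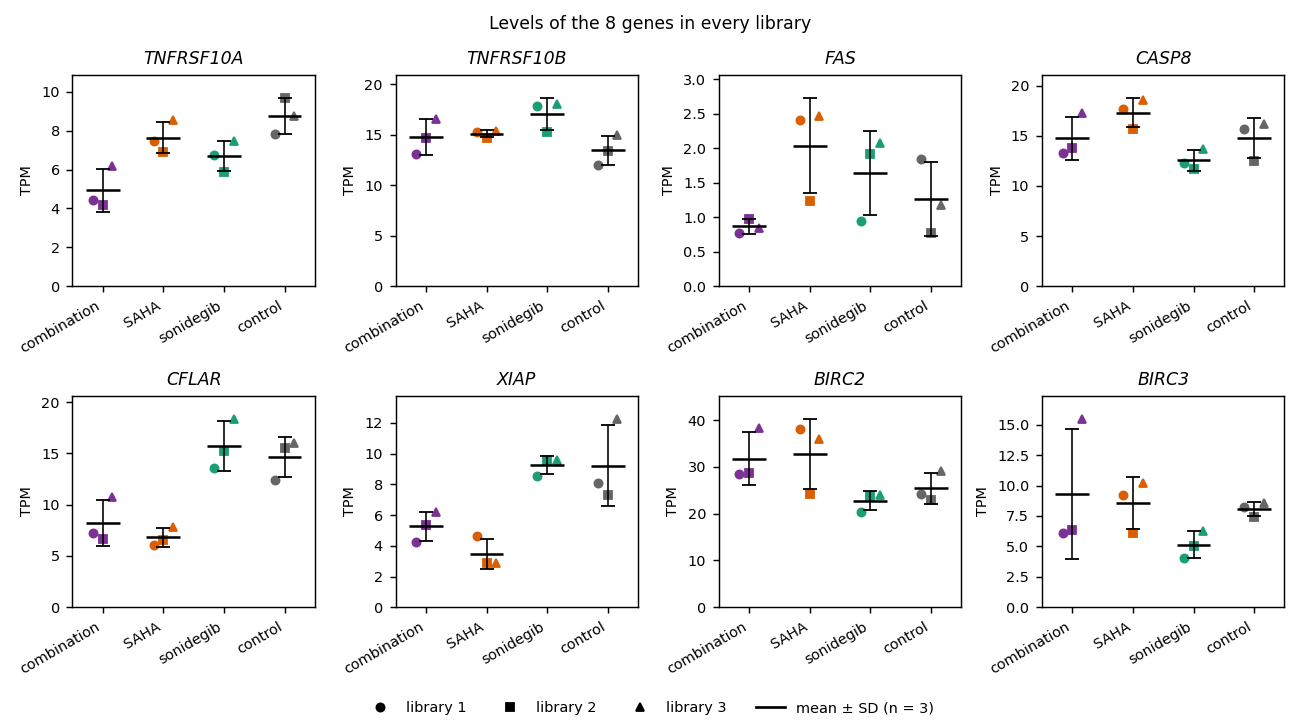
Level of each of the 8 genes in TPM on linear axes that start at 0, with 1 point per library and a bar for the mean ± SD (n = 3), and with the groups in the order combination, SAHA, sonidegib and control. CFLAR and XIAP lie lower in both groups with SAHA than in sonidegib and control, and TNFRSF10A is lowest in the combination.

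TNFRSF10A (ENSG00000104689), a TRAIL receptor, was lowest in the combination, at 4.43, 4.18 and 6.21 TPM, against 7.49, 6.93 and 8.54 TPM in SAHA. It had 6.74, 5.90 and 7.46 TPM in sonidegib, against 7.82, 9.68 and 8.77 TPM in control. Each combination library lay below every SAHA and every control library, while the highest combination library overlapped the lowest sonidegib library. On the log2(TPM + 1) scale, on which changes of low genes are understated, TNFRSF10A changed by -0.73 ± 0.14 (SE) in the combination relative to control, with an adjusted p of 0.000733 from limma with Benjamini-Hochberg adjustment over all tested genes. Against SAHA the change of TNFRSF10A in the combination was -0.55 ± 0.14 (adjusted p = 0.00601, limma), and both of these calls held under each of the 21 alternative settings and left-out libraries. Against sonidegib it was -0.39 ± 0.14 (adjusted p = 0.0475, limma), a call that was lost under 13 of 21 alternatives, where the adjusted p ranged from 0.00816 to 0.166. The change with SAHA alone was -0.17 ± 0.14 (adjusted p = 0.31, limma). With sonidegib alone it was -0.34 ± 0.14, and although no sonidegib library reached a control library, the adjusted p was 0.0558. That change passed in 7 of 21 alternatives, with adjusted p between 0.0194 and 0.182 over the 21. The 7 were 4 of 9 other settings and the fits without control replicate 1 (adjusted p = 0.0488), without sonidegib replicate 3 (0.0498) and without combination replicate 3 (0.0239). Antisense transcript TNFRSF10A-AS1, on the opposite strand of the same locus on chromosome 8, was listed at 1.31 to 2.23 TPM in the combination, 1.45 to 2.51 TPM in SAHA, 2.60 to 4.06 TPM in sonidegib and 2.56 to 4.48 TPM in control. A more abundant transcript on that strand, AC100861.1, had 4.17 to 6.35 TPM in the combination and 3.41 to 6.18 TPM in SAHA. It had 4.58 to 7.14 TPM in sonidegib and 4.21 to 4.38 TPM in control. In the combination its level was of the size of TNFRSF10A itself. Whether reads were counted by strand is not given in the sources used here, so the share of such transcripts in the value of TNFRSF10A was not tested.

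TNFRSF10B (ENSG00000120889), the receptor that many TRAIL agonists address, was not called lower in any comparison and was called higher in sonidegib than in control. It had 13.09, 14.69 and 16.59 TPM in the combination and 15.31, 14.67 and 15.34 TPM in SAHA. In sonidegib it had 17.87, 15.24 and 18.06 TPM, all above the 12.05, 13.38 and 14.94 TPM of control. The rise with sonidegib was 0.32 ± 0.10 on the log2 scale (adjusted p = 0.0194, limma), and the call was lost without control replicate 1 (0.25, adjusted p = 0.0799), without sonidegib replicate 1 (0.29, adjusted p = 0.0668) and without sonidegib replicate 3 (0.28, adjusted p = 0.0700). Over all 21 alternatives the adjusted p of this change ranged from 0.000589 to 0.0799. The change was 0.13 ± 0.10 in the combination relative to control (adjusted p = 0.301, limma) and 0.16 ± 0.10 in SAHA relative to control (adjusted p = 0.201, limma). The 95% interval ran from -0.10 to 0.35 for the combination and from -0.06 to 0.39 for SAHA. These changes passed as higher in 2 of 9 other settings for the combination (smallest adjusted p = 0.0091, limma). For SAHA this was so in 1 of 9 (adjusted p = 0.0329, limma). RHOBTB2, a gene on the opposite strand that overlaps TNFRSF10B in the annotation, lay at 10.34 to 12.92 TPM in the combination and 11.27 to 12.04 TPM in SAHA, against 4.24 to 4.45 TPM in sonidegib and 4.22 to 4.42 TPM in control. Its part in the TNFRSF10B values was not tested. The ratio of TNFRSF10B to TNFRSF10A, a description with no test, was 3.05 ± 0.429 in the combination, 1.99 ± 0.168 in SAHA, 2.55 ± 0.118 in sonidegib and 1.54 ± 0.161 in control (SD, n = 3 each).

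FAS, the receptor of Fas ligand (ENSG00000026103, GRCh38 chr10:88990582-89015785, plus strand), was near the limit of the test in level. It had 0.77, 0.98 and 0.85 TPM in the combination and 2.41, 1.24 and 2.46 TPM in SAHA. In sonidegib it had 0.94, 1.91 and 2.07 TPM, and in control 1.84, 0.77 and 1.18 TPM. All 3 combination libraries lay below all 3 SAHA libraries, and every other pair of groups overlapped. FAS changed by -0.68 ± 0.24 in the combination relative to SAHA (adjusted p = 0.0372, limma), but the call was lost under 7 of 20 alternatives, with adjusted p between 0.0131 and 0.116. Those without SAHA replicate 1 (0.115), SAHA replicate 3 (0.116), combination replicate 1 (0.0891), combination replicate 2 (0.0619) or combination replicate 3 (0.0741) were among them, and without SAHA replicate 2 the change in SAHA relative to control passed (0.63, adjusted p = 0.0493). Over its opposite strand, ACTA2 was listed at 1.11 to 1.20 TPM in the combination, 0.82 to 1.27 TPM in SAHA, 1.99 to 2.62 TPM in sonidegib and 0.05 to 0.42 TPM in control, levels of the size of FAS itself, and its part in the FAS values was not tested.

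CASP8, the initiator caspase (ENSG00000064012, GRCh38 chr2:201233443-201287711, plus strand), lay between 11.65 and 18.53 TPM in all libraries. It had 13.27, 13.81 and 17.23 TPM in the combination and 17.71, 15.70 and 18.53 TPM in SAHA. It had 12.28, 11.65 and 13.72 TPM in sonidegib and 15.68, 12.47 and 16.21 TPM in control. No comparison of CASP8 passed the test with the main settings. Its changes relative to control were -0.00 ± 0.12 in the combination (adjusted p = 0.996, limma), 0.22 ± 0.12 in SAHA (adjusted p = 0.143, limma) and -0.21 ± 0.12 in sonidegib (adjusted p = 0.155, limma). The 95% interval of the combination change ran from -0.27 to 0.26, which includes changes of either sign. Leaving out control replicate 2 put the sonidegib change past the threshold (-0.33, adjusted p = 0.0432), and leaving out combination replicate 3 did so for the combination against SAHA (-0.33, adjusted p = 0.0417). Of 9 other settings, the SAHA change passed as higher in 2 (smallest adjusted p = 0.0215, limma). The sonidegib change, the combination against SAHA and the combination against sonidegib passed in 1 each.

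CFLAR, the c-FLIP gene (ENSG00000003402, GRCh38 chr2:201116104-201176687, plus strand), lies near CASP8 on chromosome 2 and fell wherever SAHA was given. It had 7.21, 6.61 and 10.79 TPM in the combination and 6.05, 6.52 and 7.85 TPM in SAHA. In sonidegib it had 13.55, 15.27 and 18.33 TPM, and in control 12.39, 15.49 and 16 TPM. All 6 libraries with SAHA lay below all 6 without it, and neither the SAHA pair of groups nor the pair without SAHA was separated. The change was -0.78 ± 0.17 in the combination relative to control (adjusted p = 0.00192, limma), -1.0 ± 0.17 in SAHA relative to control (adjusted p = 0.00039) and -0.88 ± 0.17 in the combination relative to sonidegib (adjusted p = 0.00199). None of these 3 calls was lost under the 21 alternatives, over which the largest adjusted p was 0.0135 for the combination against control, 0.00255 for SAHA against control and 0.0161 for the combination against sonidegib. With sonidegib alone CFLAR changed by 0.10 ± 0.17 relative to control (adjusted p = 0.667, limma), and in the combination relative to SAHA by 0.22 ± 0.17 (adjusted p = 0.318, limma). The summed fibroblast markers, nearly all COL1A1, were higher in every library with SAHA than in every library without it, with COL1A2 and DCN near 0, and their part in this fall was not tested. The antisense transcript CFLAR-AS1 reached at most 0.17 TPM.

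The balance between c-FLIP and caspase-8 transcripts moved with CFLAR. The ratio of CFLAR to CASP8 in TPM was 0.543, 0.479 and 0.626 in the 3 combination libraries and 0.342, 0.415 and 0.424 in the SAHA libraries. It was 1.10, 1.31 and 1.34 in sonidegib and 0.790, 1.24 and 0.987 in control. The ratios of all libraries with SAHA lay below those of all libraries without it. The means were 0.549 ± 0.074 in the combination, 0.394 ± 0.0451 in SAHA, 1.25 ± 0.128 in sonidegib and 1.01 ± 0.227 in control (SD, n = 3 each). These are ratios of whole-gene values, which do not separate the long and short forms of c-FLIP, and no test was run on them.

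**Figure D2:**
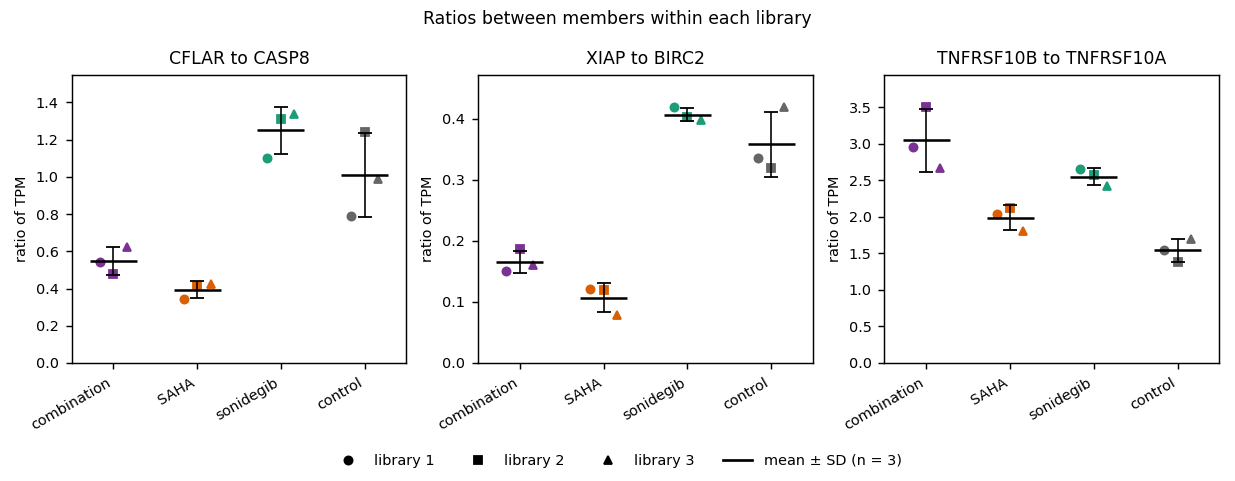
Ratios of TPM within a library on linear axes that start at 0, with 1 point per library and the mean ± SD (n = 3) for combination, SAHA, sonidegib and control. CFLAR to CASP8 averages 0.549 in the combination and 0.394 in SAHA, against 1.25 in sonidegib and 1.01 in control.

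XIAP, the inhibitor of executioner caspases (ENSG00000101966, GRCh38 chrX:123859724-123913979, plus strand), also fell wherever SAHA was given. It had 4.27, 5.32 and 6.18 TPM in the combination and 4.61, 2.91 and 2.85 TPM in SAHA. It had 8.55, 9.56 and 9.57 TPM in sonidegib and 8.09, 7.31 and 12.24 TPM in control. Every library with SAHA again lay below every library without it. XIAP changed by -0.69 ± 0.19 in the combination relative to control (adjusted p = 0.00899, limma) and by -1.19 ± 0.19 in SAHA relative to control (adjusted p = 0.000271, limma). Both calls held under all 21 alternatives, with the largest adjusted p at 0.0403 for the combination and 0.00663 for SAHA. In the combination relative to sonidegib it changed by -0.72 ± 0.19 (adjusted p = 0.0128, limma), a call lost without combination replicate 1 (-0.60, adjusted p = 0.0515) and in no other alternative. Relative to SAHA the combination value was 0.50 ± 0.19 higher with an adjusted p of 0.0505 (limma), and the 2 groups overlapped. This change passed in 10 of 21 alternatives, which were 6 of 9 other settings and the fits without control replicate 2, control replicate 3, SAHA replicate 1 or combination replicate 1, and its adjusted p ranged from 0.0117 to 0.16 over the alternatives.

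BIRC2 and BIRC3, neighbours on chromosome 11, passed the test in no comparison in either direction with the main settings, although some changes passed under alternatives. BIRC2 (ENSG00000110330, GRCh38 chr11:102347211-102378670, plus strand) had 28.41, 28.67 and 38.27 TPM in the combination and 38.12, 24.16 and 35.88 TPM in SAHA. It had 20.38, 23.74 and 24.03 TPM in sonidegib and 24.16, 22.86 and 29.16 TPM in control. The combination libraries lay above all sonidegib libraries, with a change of 0.46 ± 0.17 that had an adjusted p of 0.0527 (limma) and passed in 10 of 21 alternatives, where it ran from 0.0156 to 0.19, among them those without SAHA replicate 1 and without SAHA replicate 2. Relative to control BIRC2 changed by 0.31 ± 0.17 in the combination (adjusted p = 0.135, limma) and by 0.33 ± 0.17 in SAHA (adjusted p = 0.113, limma). The SAHA change passed without SAHA replicate 2 (0.53, adjusted p = 0.00906) and in 1 of 9 other settings. The combination change passed in 3 of 9 other settings, with a smallest adjusted p of 0.0119 (limma). In sonidegib it was -0.15 ± 0.17 (adjusted p = 0.478, limma).

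BIRC3 (ENSG00000023445, GRCh38 chr11:102317450-102339403, plus strand) had 6.11, 6.34 and 15.46 TPM in the combination and 9.25, 6.13 and 10.24 TPM in SAHA. In sonidegib it had 4.06, 5.07 and 6.29 TPM, all below the 8.27, 7.44 and 8.56 TPM of control. Its spread in the combination came from replicate 3, which was more than any other library held. The change in sonidegib was -0.58 ± 0.29 (adjusted p = 0.112, limma), and it passed without combination replicate 3 (adjusted p = 0.0176), which enters the shared estimate of the spread. It also passed in 2 of 9 other settings. In the combination relative to sonidegib BIRC3 changed by 0.65 ± 0.29 (adjusted p = 0.102, limma), which passed in 2 of 9 other settings. Relative to control the combination value was 0.07 ± 0.29 (adjusted p = 0.859, limma) and without its replicate 3 it was -0.33, of the opposite sign. In SAHA the change was 0.05 ± 0.29 (adjusted p = 0.912, limma).

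The sum of XIAP, BIRC2 and BIRC3 was 46.3 ± 11.8 TPM in the combination, 44.7 ± 10.1 TPM in SAHA, 37.1 ± 3.63 TPM in sonidegib and 42.7 ± 6.46 TPM in control (SD, n = 3 each), and the libraries of every pair of groups overlapped. BIRC2 made up 69.4 ± 4.90% of that sum in the combination, 73.1 ± 0.309% in SAHA, 61.3 ± 0.915% in sonidegib and 59.6 ± 1.21% in control. The ratio of XIAP to BIRC2 was 0.166 ± 0.0180 in the combination, 0.107 ± 0.0238 in SAHA, 0.407 ± 0.0112 in sonidegib and 0.358 ± 0.0539 in control. That of BIRC3 to BIRC2 was 0.280 ± 0.107 in the combination, 0.261 ± 0.0222 in SAHA, 0.225 ± 0.0328 in sonidegib and 0.320 ± 0.0248 in control. No test was run on these sums, shares and ratios.

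Promoter windows of 300 bases are shown for CFLAR and XIAP, which fell with SAHA, and for BIRC2 and BIRC3, which did not pass with the main settings. Each spans a transcript start in RefSeq, with most of it upstream, build GRCh38.p14, and the window nearest the annotated gene start was taken. The windows are CFLAR at chr2:201118466-201118765, XIAP at chrX:123859458-123859757, BIRC2 at chr11:102346964-102347263 and BIRC3 at chr11:102317234-102317533, all on the plus strand and written 5′ to 3′. Capitals mark matches, on either strand, to the GC box GGGCGG or to the kappaB consensus.
CFLAR: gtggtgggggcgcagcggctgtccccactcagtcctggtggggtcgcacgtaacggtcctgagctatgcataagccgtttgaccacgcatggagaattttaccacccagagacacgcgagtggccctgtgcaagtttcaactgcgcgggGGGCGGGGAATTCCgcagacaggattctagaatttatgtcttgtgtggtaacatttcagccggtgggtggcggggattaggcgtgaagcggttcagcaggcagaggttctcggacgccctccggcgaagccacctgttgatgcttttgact
XIAP: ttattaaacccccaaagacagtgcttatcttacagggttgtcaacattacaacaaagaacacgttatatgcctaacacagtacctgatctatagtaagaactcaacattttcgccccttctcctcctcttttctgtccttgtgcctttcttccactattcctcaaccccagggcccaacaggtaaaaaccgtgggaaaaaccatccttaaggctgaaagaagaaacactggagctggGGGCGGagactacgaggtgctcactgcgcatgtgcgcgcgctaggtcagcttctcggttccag
BIRC2: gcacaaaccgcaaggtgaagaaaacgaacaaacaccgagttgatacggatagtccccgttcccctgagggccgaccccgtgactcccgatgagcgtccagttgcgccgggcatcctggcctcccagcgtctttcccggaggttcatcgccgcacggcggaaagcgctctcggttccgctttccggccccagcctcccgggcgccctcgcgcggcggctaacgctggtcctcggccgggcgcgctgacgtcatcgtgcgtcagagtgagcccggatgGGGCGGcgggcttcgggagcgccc
BIRC3: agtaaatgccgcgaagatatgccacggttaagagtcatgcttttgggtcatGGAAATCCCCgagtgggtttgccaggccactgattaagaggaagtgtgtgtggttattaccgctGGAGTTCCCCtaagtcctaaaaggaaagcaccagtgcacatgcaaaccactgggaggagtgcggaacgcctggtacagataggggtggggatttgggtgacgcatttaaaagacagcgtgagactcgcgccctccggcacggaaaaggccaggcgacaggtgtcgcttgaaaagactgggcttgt
In CFLAR the capitals are 1 GC box and 1 kappaB match that overlap. XIAP and BIRC2 hold 1 GC box each and no kappaB match, and BIRC3 holds 2 kappaB matches and no GC box. None of the 4 windows held the CCAAT letters or the E-box CACGTG. Among 35116 RefSeq promoter windows of this length, 45.0% held a GC box, 5.91% a kappaB match, 34.6% CCAAT and 7.26% the E-box. The CFLAR window begins far from the gene start of the annotation, and gene-level values do not show which start was used, so the matches are a description of letters and the results above do not rest on them.

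Read comparison by comparison, the share of the 8 genes that passed is set beside that of all tested genes, with no test between them. In SAHA relative to control 2 of 8 passed, both lower, against 58.7% of all tested genes in either direction, 31.8% higher and 26.9% lower. In sonidegib relative to control 1 of 8 passed, higher, against 55.3% in either direction, 26.1% higher and 29.2% lower. The combination relative to control had 3 of 8 pass, all lower, against 63.7% in either direction, 29.7% higher and 34% lower. Relative to SAHA, the combination had 2 of 8 pass, both lower, against 50.9% in either direction, 18% higher and 33% lower. Relative to sonidegib it had 3 of 8, all lower, a share close to the 38.5% of all tested genes, of which 17.5% were higher and 21% lower. Scaling by the median of ratios, in place of TPM as deposited, put the share of higher genes among all calls at 48.4% for the combination relative to SAHA, where it was 35.3% as deposited. Scaling by the 75th percentile put it at 57.8% in the combination relative to control, where it was 46.6% as deposited, and at 59.2% in sonidegib relative to control, where it was 47.2%.

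**Figure D3:**
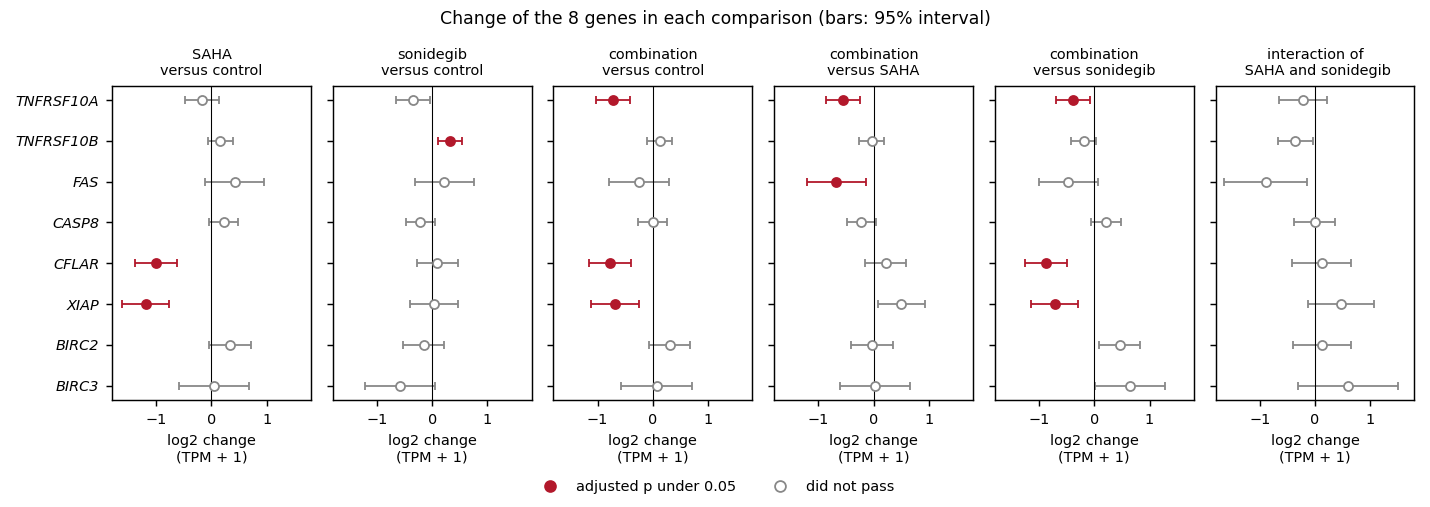
Log2 changes of the 8 genes with bars for the 95% interval in each comparison, from limma on log2(TPM + 1), with filled points for an adjusted p under 0.05. CFLAR and XIAP lie left of 0 in all 3 comparisons that differ by SAHA. TNFRSF10A lies left of 0 in every comparison, with filled points in the 3 that set the combination against another group.

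The interaction asks whether the change with both drugs differs from the sum of the single-drug changes on the log2 scale. None of the 8 genes passed in limma, against 31.4% of all tested genes (11.8% positive and 19.7% negative), and 2 of 8 had an unadjusted p under 0.05. FAS had -0.90 ± 0.34 (unadjusted p = 0.0243, adjusted p = 0.0695, limma) and TNFRSF10B had -0.36 ± 0.14 (unadjusted p = 0.0312, adjusted p = 0.0838, limma). FAS passed without control replicate 1 (adjusted p = 0.0405), SAHA replicate 2 (0.0295) or sonidegib replicate 1 (0.0299), and TNFRSF10B without control replicate 3 or combination replicate 3. TNFRSF10B also passed in 2 of 8 other settings, with a smallest adjusted p of 0.0216 (limma). For XIAP the value was 0.47 ± 0.28 (adjusted p = 0.224, limma) and for CFLAR it was 0.12 ± 0.24 (adjusted p = 0.744, limma), with a 95% interval from -0.41 to 0.66. TNFRSF10A had -0.21 ± 0.20 (adjusted p = 0.446, limma), with a 95% interval from -0.64 to 0.22. Scaling by the median of ratios put the share of higher genes among all interaction calls at 50.0%, where it was 37.5% as deposited.

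The genes whose pattern over the 12 libraries lay nearest to these were found by the root mean square difference of log2(TPM + 1) values, each taken relative to the gene's own mean. For CFLAR they were BDH1 (0.157), TNFSF10 (0.161) and ZNF32 (0.162), the second of which encodes TRAIL itself. XIAP had NUDT3 (0.154), L3MBTL4 (0.167) and KRCC1 (0.178) nearest. TNFRSF10A had ABHD5 (0.0807), UNC50 (0.0957) and KDM1A (0.107), and FAS had IRS2 (0.197), AP2A2 (0.204) and MGLL (0.208).

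A further 54 genes of the route were followed in lists by role, and 39 of them reached 1 TPM. In the combination relative to control 12 rose and 18 fell of the 39, in SAHA 13 and 13, and in sonidegib 9 and 13. Of all tested genes, 29.7% rose and 34% fell in the combination, 31.8% and 26.9% in SAHA and 26.1% and 29.2% in sonidegib, and nothing particular to the lists is read from their counts or from the counts by role that follow. Their median change was -0.26 in the combination against -0.02 for all tested genes, -0.04 in SAHA against 0.05, and -0.06 in sonidegib against -0.02. Relative to SAHA, 4 of the 39 rose and 16 fell in the combination, with a median of -0.20 against -0.12 for all tested genes, and relative to sonidegib 9 rose and 12 fell, with a median of -0.07 against -0.02. Of all tested genes 18% rose and 33% fell relative to SAHA, and 17.5% rose and 21% fell relative to sonidegib. Every gene of these lists that is said to have risen or fallen had an adjusted p under 0.05 in limma, with SEs between 0.0530 and 0.239 on the log2 scale, and over all 6 comparisons 102 of 135 such calls held under every alternative.

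Means over the 3 libraries of a group are given ± SD. Of the death ligands, 3 of 6 were measured above 1 TPM and FASLG was listed at 0 in all libraries. TNFSF10, the gene of TRAIL, had 80.3 ± 15.9 TPM in the combination, 62.0 ± 10.3 TPM in SAHA, 145 ± 6.83 TPM in sonidegib and 127 ± 2.13 TPM in control. It fell by 0.67 on the log2 scale in the combination and by 1.03 in SAHA relative to control, and by 0.86 in the combination relative to sonidegib. TNFSF12 (TWEAK) also fell in SAHA relative to control, by 0.64, a call lost in 7 of 20 alternatives. No ligand passed in sonidegib alone. Both TRAIL and its receptor TNFRSF10A were called lower in the combination than in control.

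Among other death and decoy receptors, 3 of 8 were tested. TNFRSF21, the gene of DR6, rose by 2.05 in the combination, 1.76 in SAHA and 1.20 in sonidegib relative to control. Its level was 83.4 ± 2.97 TPM in the combination, 68.0 ± 4.16 TPM in SAHA, 45.8 ± 3.47 TPM in sonidegib and 19.4 ± 1.04 TPM in control. TNFRSF10D, a decoy receptor for TRAIL that lacks a working death domain, rose by 0.63 in the combination and 1.12 in SAHA relative to control, with 4.44 ± 1.06 TPM in the combination, 6.56 ± 1.02 TPM in SAHA, 2.23 ± 0.297 TPM in sonidegib and 2.49 ± 0.401 TPM in control. TNFRSF1A, a receptor for TNF itself, fell by 0.29 in the combination and by 0.36 in SAHA and rose by 0.29 in sonidegib.

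All 11 adaptors and complex proteins were tested. In the combination relative to control 4 rose and 3 fell, in SAHA 5 and 3, and in sonidegib 2 and 4. The 7 of 11 called in the combination stand beside 63.7% of all tested genes, the 8 in SAHA beside 58.7% and the 6 in sonidegib beside 55.3%. RIPK1, the kinase that cIAP1 and cIAP2 ubiquitinate, fell by 1.26 in the combination, by 0.76 in SAHA and by 0.75 in sonidegib. TRAF2, which recruits the cIAPs, fell by 1.16 in the combination, by 0.61 in SAHA and by 0.91 in sonidegib. The adaptor FADD fell by 0.90 in the combination, by 0.24 in SAHA and by 0.70 in sonidegib, although its call in SAHA was lost in 7 of 21 alternatives. CYLD, a deubiquitinase of these complexes, rose by 1.43 in the combination, 1.58 in SAHA and 0.51 in sonidegib, and TNFAIP3 (A20), an inhibitor of NF-kB signalling, rose by 1.05 in the combination and 0.67 in SAHA. The TNFAIP3 call in SAHA was lost without control replicate 1 (adjusted p = 0.0542).

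Among the other caspases, 9 of 10 were tested, and in the combination relative to control 2 rose and 6 fell, beside 29.7% higher and 34% lower of all tested genes. In SAHA 3 rose and 3 fell, beside 31.8% and 26.9%, and in sonidegib 2 rose and 2 fell, beside 26.1% and 29.2%. CASP6, an executioner caspase, had 5.62 ± 0.553 TPM in the combination, 15.8 ± 2.05 TPM in SAHA, 12.6 ± 1.05 TPM in sonidegib and 20.7 ± 2.06 TPM in control. It changed by -1.72 in the combination relative to control and by -1.34 relative to SAHA. CASP9, the initiator of the mitochondrial route, rose by 1.11 in SAHA and 0.76 in the combination relative to control. CASP14, a caspase of keratinising epidermis, rose by 1.44 in sonidegib and changed by -1.77 in the combination relative to sonidegib, with 204 ± 13.2 TPM in the combination, 174 ± 17.6 TPM in SAHA, 700.0 ± 20.2 TPM in sonidegib and 259 ± 25.2 TPM in control.

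Of the other BIR proteins 2 of 4 were tested. BIRC5 (survivin), which takes part in cell division as well as in caspase control, fell by 1.10 in SAHA and rose by 0.53 in sonidegib relative to control, and rose by 1.29 in the combination relative to SAHA. BIRC6 fell by 0.42 in the combination and by 0.35 in sonidegib relative to control. Among the IAP antagonists and apoptosome genes, 5 of 6 were tested, and 4 rose and 1 fell in the combination relative to control, beside 29.7% higher and 34% lower of all tested genes. Of the 4 rises, those of HTRA2 and APAF1 were lost in 5 of 21 and in 5 of 20 alternatives. SEPTIN4, whose ARTS form antagonises XIAP, rose by 1.93 in SAHA and 0.96 in the combination, with 5.84 ± 0.480 TPM in the combination, 12.3 ± 0.431 TPM in SAHA, 4.70 ± 1.04 TPM in sonidegib and 2.53 ± 0.529 TPM in control. DIABLO, the mitochondrial IAP antagonist SMAC, rose by 0.43 in the combination and in SAHA, and CYCS (cytochrome c) fell by 0.95 in the combination and by 1.33 in sonidegib relative to control.

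Downstream of the caspases, 4 of 5 tested genes fell in the combination relative to control, 2 in SAHA and 4 in sonidegib, and none rose. Of the falls in SAHA, 1 was lost in 12 of 20 alternatives, and of those in sonidegib 1 was lost in 12 of 21. The fall of PARP1 in the combination was lost in 2 of 21. Of all tested genes 34% fell in the combination, 26.9% in SAHA and 29.2% in sonidegib. BID, which caspase-8 cuts to engage mitochondria, fell by 0.96 in the combination, by 0.56 in SAHA and by 0.50 in sonidegib. Of the necroptosis genes, MLKL, the pore-forming protein at the end of that route, was the 1 of 3 tested, and it had 3.37 ± 0.424 TPM in the combination, 7.98 ± 0.866 TPM in SAHA, 9.02 ± 0.498 TPM in sonidegib and 23.2 ± 0.694 TPM in control. It changed by -2.48 in the combination, -1.44 in SAHA and -1.27 in sonidegib relative to control, while RIPK3, its activating kinase, stayed below a mean of 1 TPM.

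**Figure D4:**
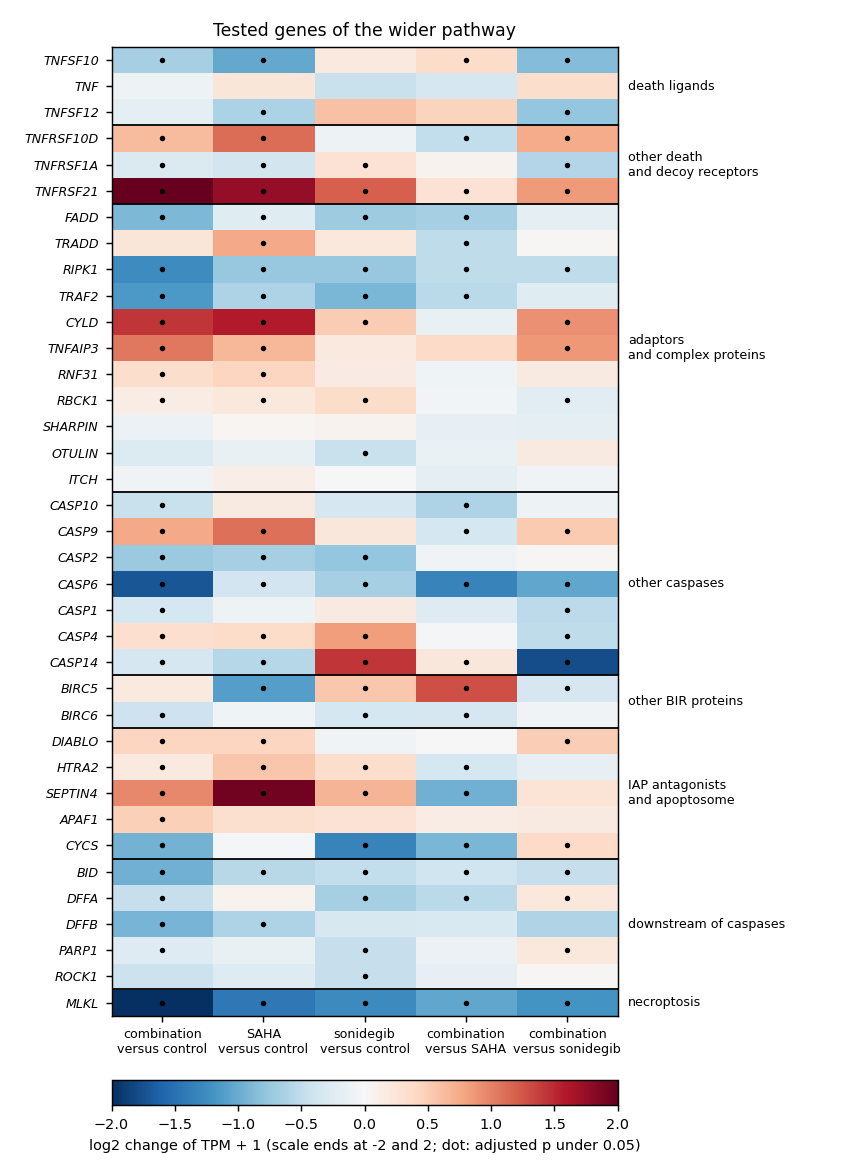
Log2 changes of 37 tested genes of the role lists in each comparison, coloured by size and direction, with calls at an adjusted p under 0.05 marked. RIPK1, TRAF2, BID and MLKL are lower and TNFRSF21 and CYLD higher than control in the combination, in SAHA and in sonidegib.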

How the data were processed

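RNA sequencing was run on 12 libraries of MDA-MB-468 cells, and groups and numbers came from the labels. The deposited values are gene-level TPM, scaled by the authors over all genes after length correction and given to 2 decimals. Bowtie2 2.4.1 and build GRCh38 are named in the submitters' processing notes. The quantifier, annotation release, strand and depth are not given in the sources used here. RNA was taken up in TRIzol, per the labels' protocols.

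Genes averaging 1 TPM or more over the libraries, 13937 in all, were fitted as log2(TPM + 1) in limma 3.58.1 (R 4.3.3), with 4 group means, 8 residual degrees of freedom and an intensity trend. Tests were two-sided, with Benjamini-Hochberg adjustment over all tested genes within a comparison and a call at an adjusted p under 0.05. The script was tested on simulated data. Alternatives were a pseudocount of 0.1, no filter, a mean of at least 5 TPM, 3 other scalings, no ribosomal or mitochondrial genes, only the groups compared, a replicate block and each library left out. A left-out library from a group outside a comparison changes only the shared spread and cannot move the estimate. Such fits are counted among the alternatives throughout. The same alternatives were run for the role lists, a choice made after seeing the data.

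The 8 genes, the role lists and the alternatives were chosen with earlier results of these data known. Named list genes were up to 2 per list and comparison with the largest called changes; FADD, TNFRSF1A, CASP9, DIABLO, BIRC6 and some others were added after their values were seen, as were the XIAP to BIRC2 and TNFRSF10B to TNFRSF10A ratios, the BIRC2 share and the motifs. SEPTIN4 was stored under a symbol changed to a date, and of 2 records of DIABLO the more abundant was used. Promoter sequence is from RefSeq, GRCh38.p14. Some genes of the lists are counted but their values are not reported here.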

Additional observations from a re-analysis of the deposited data

Results flagged for a closer look

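None of the 8 genes had an interaction past the threshold, so the genes below belong to the role lists. For 15 of them, given here, the change with both drugs differed from the sum of the single-drug changes on the log2 scale, at an adjusted p under 0.05 in limma. Of the 39 tested list genes 16 passed, beside 31.4% of all tested genes, 11.8% positive and 19.7% negative. Among all interaction calls 37.5% were positive as deposited and 50.0% with median-of-ratios scaling. Nothing particular to the lists is read from the count or the signs.

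Among receptors, TNFRSF21 had an interaction of -0.91 and TNFRSF1A of -0.22, and the TNFRSF1A value passed in 7 of 20 alternatives. In the receptor complexes TRADD had -0.72, CYLD -0.67 and RBCK1 -0.41, and the CYLD value passed in 12 of 20 alternatives.

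The caspases had CASP14 at -1.20, CASP4 at -0.88, CASP6 at -0.66, CASP9 at -0.58 and CASP2 at 0.69. The CASP9 value was lost in 2 of 20 alternatives.

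SEPTIN4 had the largest interaction of the 15, at -1.65, and HTRA2 had -0.71. BIRC5 had 0.76, CYCS 0.42 and PARP1 0.35. The other 12 calls held in all 20 alternatives. These interactions rest on libraries with and without sonidegib, which also differ in 5S ribosomal RNA, and the part of that difference was not tested.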

How the results depend on the processing

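The falls of CFLAR and XIAP in the combination and in SAHA relative to control, of CFLAR in the combination relative to sonidegib, and of TNFRSF10A in the combination relative to control and to SAHA held under all 21 alternatives. TPM carry no depth, so what depth limits cannot be given, and 3 libraries a group limit the rest. FAS has no value at a mean of at least 5 TPM.

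With libraries left out, 7472 to 8287 of 13937 tested genes were called in SAHA relative to control. In sonidegib it was 6877 to 7802, and in the combination 8117 to 8945. The combination had 6226 to 7081 relative to SAHA and 4466 to 5477 relative to sonidegib, and the interaction had 3776 to 4297. Counts of the 8 genes called moved as follows, and the cause was not tested. In SAHA relative to control the count was 5 (3 higher, 2 lower) with 75th percentile scaling and 2 to 4 when libraries were left out. In the combination relative to control it was 5 (2 higher, 3 lower) with 75th percentile scaling and with quantile normalization. In sonidegib relative to control it was 2 with median-of-ratios scaling and with quantile normalization, 3 with only the groups compared, and 0 to 3 when libraries were left out. In the combination relative to SAHA it was 1 with no filter and 1 to 3 when libraries were left out. In the combination relative to sonidegib it was 6 (3 higher, 3 lower) with quantile normalization and 1 to 3 when libraries were left out. In the interaction it was 1 with 75th percentile scaling and 0 to 1 when libraries were left out. Of all 13937 tested genes, 75th percentile scaling called 8421 in SAHA and 9220 in the combination relative to control, and 4816 in the interaction. Quantile normalization called 9138 in the combination and 7905 in sonidegib relative to control, and 6008 in the combination relative to sonidegib. Median-of-ratios scaling called 8024 in sonidegib relative to control. Nothing particular to the 8 genes is read from their counts.

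Replicate numbers were fitted as a block although they are not known to pair the libraries. Same-numbered libraries correlated at -0.059 to 0.111 in their deviations over 18 pairs, and other pairs at -0.107 to 0.097. By the mean correlation with the libraries of each number in other groups, 8 of 12 libraries stood highest with their own number. With the replicate block the count of the 8 genes called was 4 in sonidegib relative to control, 5 (2 higher, 3 lower) in the combination relative to sonidegib and 1 in the interaction. Over the alternatives other than left-out libraries, all genes called ran 6109 to 8076, 4481 to 6008 and 3737 to 4816 in these comparisons. The settings with another filter tested other numbers of genes.

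No called change of the 8 genes reversed, while some small uncalled ones did. With median-of-ratios scaling BIRC3 in SAHA relative to control was -0.019, CASP8 in the combination relative to control 0.047, TNFRSF10B in the combination relative to SAHA 0.081, BIRC2 there 0.092 and the CASP8 interaction 0.080. With quantile normalization the same 5 were -0.019, 0.071, 0.090, 0.109 and 0.095. With 75th percentile scaling CASP8 was 0.157, TNFRSF10B 0.061 and BIRC2 0.071 in those comparisons, and without ribosomal and mitochondrial genes CASP8 was 0.053. With libraries left out, the ranges of the changes that reversed were -0.226 to 0.093 for BIRC2 and -0.375 to 0.231 for BIRC3 in the combination relative to SAHA. They were -0.329 to 0.276 for BIRC3 and -0.112 to 0.066 for CASP8 in the combination relative to control, and -0.087 to 0.242 for BIRC3 in SAHA relative to control. They were -0.014 to 0.190 for CFLAR and -0.103 to 0.233 for XIAP in sonidegib relative to control, and -0.115 to 0.045 for TNFRSF10B in the combination relative to SAHA. For the interaction they were -0.075 to 0.243 for BIRC2, -0.115 to 0.104 for CASP8 and -0.071 to 0.245 for CFLAR.

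The scalings moved the median change of all tested genes by 0.106 (median of ratios) and 0.115 (quantile) in the combination relative to SAHA, where no filter moved it by 0.103. The 75th percentile scaling moved it by 0.136 in the combination and 0.117 in sonidegib relative to control.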
